A study of Mus musculus with 24 samples.

Results

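The nuclear genes of the mitochondrial respiratory chain and ATP synthase were followed in the kidneys of young mice that carry a mutant or a wild type uromodulin transgene. Members were all array probes whose gene symbol starts with Nduf, Sdha, Sdhb, Sdhc, Sdhd, Uqcr, Cox4, Cox5, Cox6, Cox7, Cox8 or Atp5, or is Cyc1 or Cycs, and which were detected above the negative controls (p below 0.01) on 1 or more of the 24 arrays. This gave 117 probes of 82 genes, among 19643 expressed probes of the 45281 on the array and 10378 named genes with an expressed probe. By complex they fell into 34 genes of complex I, 3 of complex II, 6 of complex III, 12 of complex IV, 15 of complex V (ATP synthase) and cytochrome c itself, and the prefixes also took in 11 assembly factors, which are not part of the finished complexes. Another 21 probes with a member's symbol were not detected in any array, and they left 7 genes with no value here: Cox4i2, Cox7b2, Cox8c, Ndufaf6, Ndufs1, Uqcrfs1 and Uqcrq. Expressed probes that only 1 of the 2 deposited tables named Atp5h, Atp5l, Cox6a1, Cox7a2l, Ndufb4 or Uqcrq, 11 in all, were left out, and of these genes Atp5l and Cox6a1 are members through another probe. No expressed probe was named Sdha, Cox8a, Ndufa4l2 or Atp5g1. One complex I member, Ndufs5-ps, carries the name of a pseudogene of Ndufs5 and its signal may belong to either.

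RNA of the whole kidney was measured in 24 FVB mice, each on its own Illumina MouseWG-6 v2.0 array, in 6 groups of 4 mice. TgUmodC147W mice express uromodulin with a cysteine replaced by tryptophan, and TgUmodwt mice, the controls, express wild type uromodulin, so every group carries a transgene beside the animal's own Umod gene. Both transgenes are driven by a fragment of the mouse Umod promoter, which is active in the thick ascending limb, while the RNA comes from all cells of the kidney. The groups were males of 1 month (M1), females of 1 month (F1) and females of 2 months (F2) of each genotype. In whole-kidney RNA, fewer cells of a type and less RNA per cell cannot be told apart.

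The respiratory chain passes electrons from NADH through complex I, or from succinate through complex II, to coenzyme Q, then through complex III, the carrier cytochrome c and complex IV to oxygen, and ATP synthase uses the proton gradient that results. Complex II is made of nuclear gene products alone, while the other complexes also hold a few subunits encoded in mitochondrial DNA. Kidney tubules, above all the proximal tubule and the thick ascending limb, are rich in mitochondria, because salt and solute reabsorption consumes much ATP.

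Promoter sequence was not used to choose the members. RefSeq promoter windows of the build GRCm38.p6, reaching from 250 bases before to 50 bases after the transcription start, were matched by symbol for 71 of the 82 genes, with 76 windows in all. Exact matches to 6 motifs were searched on both strands in the windows, and no motif overlapped another one in a member's window. The motif of nuclear respiratory factor 1, GCGCATGC, stood in 13 of 76 member windows (17.1%), against 4.87% of 10783 windows of expressed named genes and 2.71% of all 32851 windows. The motif of YY1, AAGATGGC, stood in 11 (14.5%), against 4.14% and 2.75%. Both motifs stood in a larger share of member windows than of expressed ones, with no test, and 40 of 76 member windows held at least 1 of the 6 motifs. The motif of GA-binding protein, CCGGAAGT, stood in 3.95% of member windows against 7.53% of expressed ones, that of Sp1, GGGGCGGG, in 27.6% against 30.2%, the cyclic AMP response element TGACGTCA in 5.26% against 2.89%, and that of the oestrogen-related receptors, TCAAGGTCA, in 2.63% (2 windows) against 0.25%. A match is a description of the letters and not of a factor bound there.

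The windows of 6 genes on which the comparisons below turn are shown 5′ to 3′ with the motifs above in capitals. Cycs encodes cytochrome c, Atp5pb the b subunit of the stalk that holds the ATP synthase head, Ndufs7 an iron-sulphur subunit of complex I, Sdhaf1 a factor that helps to build the iron-sulphur subunit of complex II, Cox6b2 the testis-type form of a complex IV subunit and Ndufv3 an accessory subunit of complex I. They lie at chr6:50566520-50566819 (minus strand), chr3:105959214-105959513 (minus), chr10:80249199-80249498 (plus), chr7:30322326-30322625 (minus), chr7:4753045-4753344 (minus) and chr17:31519865-31520164 (plus), in that order.
Cycs: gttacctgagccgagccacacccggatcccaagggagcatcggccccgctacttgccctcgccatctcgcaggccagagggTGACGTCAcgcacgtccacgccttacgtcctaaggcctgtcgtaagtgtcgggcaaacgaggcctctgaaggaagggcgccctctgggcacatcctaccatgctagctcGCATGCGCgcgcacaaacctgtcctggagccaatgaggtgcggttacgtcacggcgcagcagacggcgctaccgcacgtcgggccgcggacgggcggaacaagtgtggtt
Atp5pb: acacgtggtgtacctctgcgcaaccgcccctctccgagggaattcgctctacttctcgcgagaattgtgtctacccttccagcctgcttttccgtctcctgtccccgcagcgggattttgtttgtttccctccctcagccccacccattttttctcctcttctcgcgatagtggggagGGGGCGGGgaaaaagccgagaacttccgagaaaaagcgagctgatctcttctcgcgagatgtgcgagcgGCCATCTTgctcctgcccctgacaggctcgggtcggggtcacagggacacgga
Ndufs7: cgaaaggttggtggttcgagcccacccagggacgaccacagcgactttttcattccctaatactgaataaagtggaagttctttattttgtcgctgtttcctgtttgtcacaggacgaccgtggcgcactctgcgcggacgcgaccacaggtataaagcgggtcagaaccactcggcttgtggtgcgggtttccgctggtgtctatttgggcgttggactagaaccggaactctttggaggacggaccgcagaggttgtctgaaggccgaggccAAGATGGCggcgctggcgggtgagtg
Sdhaf1: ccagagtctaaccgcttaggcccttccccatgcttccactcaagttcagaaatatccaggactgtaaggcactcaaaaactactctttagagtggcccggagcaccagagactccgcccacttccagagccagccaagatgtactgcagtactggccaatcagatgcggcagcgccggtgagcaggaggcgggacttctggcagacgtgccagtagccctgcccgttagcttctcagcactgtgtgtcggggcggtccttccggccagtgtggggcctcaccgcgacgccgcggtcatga
Cox6b2: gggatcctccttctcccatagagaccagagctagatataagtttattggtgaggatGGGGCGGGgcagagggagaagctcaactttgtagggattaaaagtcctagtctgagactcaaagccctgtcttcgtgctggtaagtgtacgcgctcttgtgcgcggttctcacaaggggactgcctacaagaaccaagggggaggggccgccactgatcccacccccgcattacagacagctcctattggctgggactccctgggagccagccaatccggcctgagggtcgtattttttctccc
Ndufv3: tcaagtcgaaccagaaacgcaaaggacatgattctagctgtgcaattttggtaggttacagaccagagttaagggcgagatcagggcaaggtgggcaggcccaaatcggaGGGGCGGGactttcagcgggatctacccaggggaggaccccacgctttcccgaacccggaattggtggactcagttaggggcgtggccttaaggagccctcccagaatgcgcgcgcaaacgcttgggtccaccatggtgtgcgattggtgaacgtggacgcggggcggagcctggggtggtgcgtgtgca
The Cycs window holds the nuclear respiratory factor 1 motif and the cyclic AMP response element, those of Atp5pb and Ndufs7 hold the YY1 motif, and Sp1 letters stand in Atp5pb, Cox6b2 and Ndufv3. The Sdhaf1 window has none of the 6 motifs, which says only that these letters are not in it.

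Signals are given as log2 of the background-corrected, quantile-normalized intensity, on which an array's median was 5.51. Probes differ in brightness for reasons of their sequence, so signals of different genes are not set against each other. Many member probes were bright, with 53 of 82 genes above the 90th percentile of the mean signals of named genes. The probe of Atp5b, the catalytic beta subunit of ATP synthase, averaged 15.99, close to the highest value on the arrays (16.02), and a change of a probe so near the top may be understated. Between the 6 groups the means of a member differed by a median of 0.24 on the log2 scale, and by less than 0.5 in 74 of 82 genes. The exception with a range over 1 was Cox8b, described below. Within a group the median SD of the members was 0.08 to 0.15.

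The arrays differed in ways that touch these values. Before normalization, array medians were 139.7 to 176.6 in females of 2 months, 114.6 to 130.8 in females of 1 month and 119.9 to 136.7 in males, so overall brightness moved with age and the 2 cannot be told apart. Each BeadChip holds several arrays, and which mice shared one is not given in the sources used here. Xist, the RNA made from the inactive X chromosome of females, was at background (at most 5.18 over 4 probes) on the array labelled TgUmodC147W F1 replicate 2, as on the 8 male arrays (4.70 to 5.78), while the other female arrays measured 8.99 to 12.73. Calls that rest on this array are also given without it. Umod was near the top of the scale in every group, with group means of 15.75 to 15.92 by its brightest probe, and that probe did not pass the test in any of the 5 comparisons, while a dimmer Umod probe rose in TgUmodC147W kidneys by 0.28 in males (adjusted p = 0.0331) and 0.29 in females of 1 month (adjusted p = 0.0449), and gave 0.26 without overlap in females of 2 months (adjusted p = 0.0843).

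In males of 1 month, few respiratory chain genes moved with the genotype, and they did not move together. In all, 6 subunit genes rose in TgUmodC147W kidneys and 4 genes fell, among them Cycs, while the other 72 did not pass the test. Each gene is read by its brightest expressed probe and called at an adjusted p under 0.05 (limma, Benjamini-Hochberg over the 19643 probes). The members called were 12.2% of the 82, against a background of 36.9% of all named genes, 21.6% raised and 15.3% lowered. The median change of the members was 0.01 on the log2 scale, beside 0.04 over all named genes, with 42 members positive and 40 negative. Control and mutant males did not overlap for 7 members that were higher and 7 that were lower in mutants, against 21.6% and 15.6% of all named genes. For 76 members (92.7%) the 95% confidence interval of the change lay within 1.5-fold either way, as it did for 68.2% of all named genes.

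**Figure D1:**
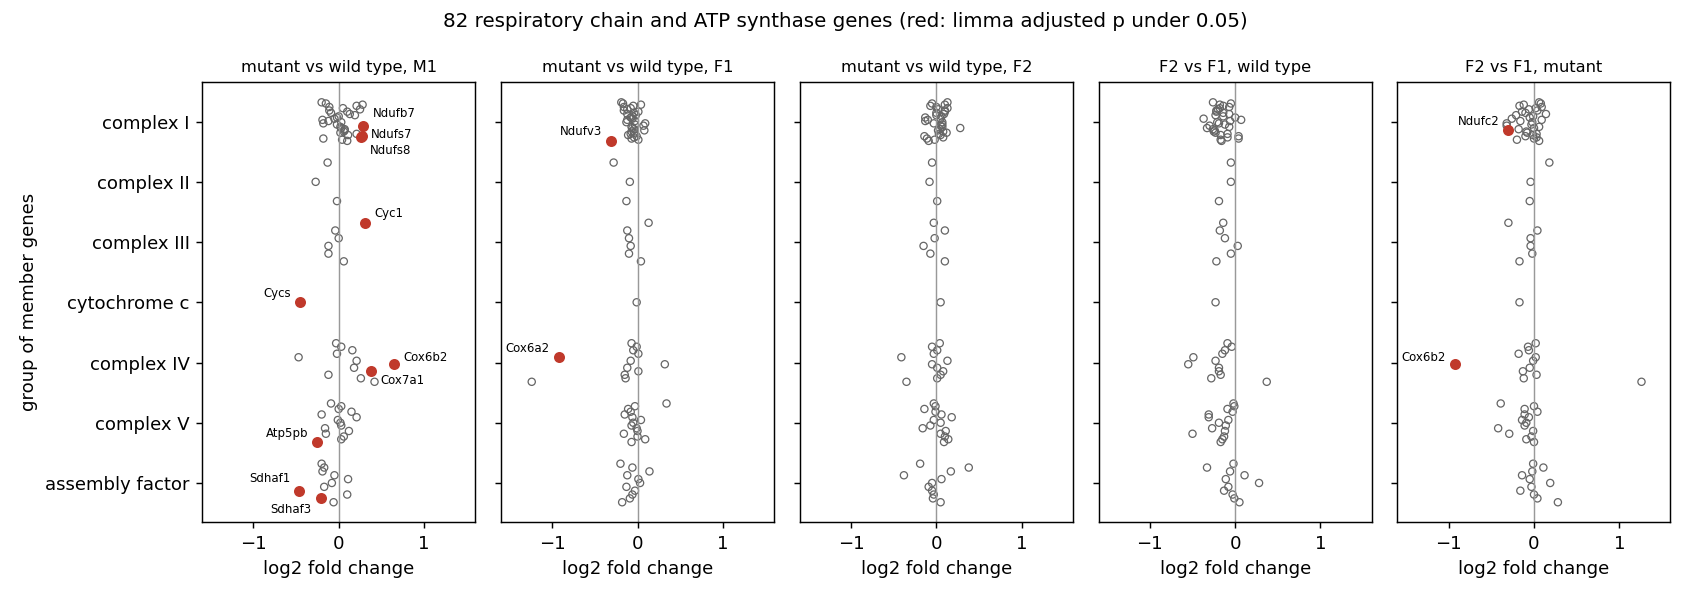
Log2 fold change of each of the 82 member genes (x axis) by complex (rows) in the 5 comparisons; each circle is a gene, and red circles passed the test and are named. The males hold 10 red circles, the females of 1 month 2, the females of 2 months and the ageing wild type none, and the ageing mutant 2. Cox6a2 is drawn at its fitted value though it was below detection on most arrays.

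The fall of Cycs stood out among the males. Cycs measured 14.18, 14.04, 13.98 and 14.09 in TgUmodwt M1 mice and 13.54, 13.60, 13.62 and 13.72 in TgUmodC147W M1 mice. The groups did not overlap, and every mutant kidney lay below every control. The log2 fold change was -0.45 ± 0.08 (SE, n = 4 and 4, limma adjusted p = 0.00143), a level 0.731 times that of the control. The dimmer Cycs probes fell as well, by 0.55 (adjusted p = 0.000958) and 0.41 (adjusted p = 0.00381). Among the 20 arrays of the other groups only 1, a mutant female of 1 month at 14.04, reached the lowest control male, so the control males were the group with the most Cycs signal.

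Sdhaf1 also had its highest mean in the control males. Its signals were 11.61, 11.62, 11.49 and 11.66 in TgUmodwt M1 and 11.16, 11.15, 11.07 and 11.14 in TgUmodC147W M1 mice. The groups did not overlap, and the log2 fold change was -0.46 ± 0.07 (SE, adjusted p = 0.00077), with -0.51 (adjusted p = 0.00251) at its dimmer probe. In the other groups 1 of 20 arrays reached the lowest control male. Sdhaf3, a second factor for the same subunit, measured 9.36, 9.29, 9.31 and 9.32 in control and 9.17, 9.12, 9.08 and 9.09 in mutant males. That difference, -0.21 ± 0.07 (adjusted p = 0.0414), was -0.09 at its dimmer probe (95% confidence interval -0.30 to 0.12, adjusted p = 0.497) and did not pass with any 1 of the 8 arrays left out. Sdhb, the iron-sulphur subunit that both factors serve, differed by -0.13 (adjusted p = 0.293).

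In complex I, 3 of 34 genes rose and none fell in males. Ndufs7 and Ndufs8, which carry iron-sulphur clusters of the arm that takes electrons from NADH, rose by 0.27 ± 0.09 (SE, adjusted p = 0.03) and 0.26 ± 0.09 (adjusted p = 0.0465). Ndufs7 measured 13.81, 13.75, 13.75 and 13.64 in control and 14.01, 14.09, 14.10 and 13.83 in mutant males, with no overlap, while the Ndufs8 groups overlapped. Ndufb7, an accessory subunit of the membrane arm, rose by 0.29 ± 0.09 (adjusted p = 0.0307), from 10.64 to 10.71 in controls to 10.72 to 11.07 in mutants. Ndufv1, which binds NADH, differed by -0.18 (adjusted p = 0.0993) and Ndufa4, now counted with complex IV, by -0.11 (adjusted p = 0.392). None of 3 complex II genes passed (median -0.13). Of the 11 assembly factors 9 were lower in mutants (81.8%, against 45.2% of all named genes), with Sdhaf1 and Sdhaf3 the ones that passed.

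Complex III and complex IV gave 3 of the rises. Cyc1, the haem-bearing cytochrome c1 subunit that hands electrons to cytochrome c, measured 13.54, 13.53, 13.44 and 13.52 in control and 13.71, 13.80, 14.13 and 13.62 in mutant males. The groups did not overlap, and Cyc1 rose by 0.31 ± 0.11 (SE, adjusted p = 0.0443) where its electron acceptor Cycs fell. The Cyc1 call was lost in 7 of the 8 fits that left out 1 array, while the Cycs call held in each. Uqcrc1, a core subunit of complex III, differed by -0.12 (adjusted p = 0.358). In complex IV the genes that rose were isoforms known from other tissues. Cox6b2 measured 7.82, 7.96, 8.08 and 8.02 in control and 8.94, 8.69, 8.39 and 8.43 in mutant males, a rise of 0.65 ± 0.12 (1.57-fold, adjusted p = 0.00217) with no overlap, and it was the only member that changed by over 1.5-fold in males. Cox7a1, the heart and muscle form that brown fat also makes, rose by 0.38 ± 0.11 (adjusted p = 0.0229), from 11.51 to 11.74 in controls to 11.80 to 12.27 in mutants. The widely expressed forms Cox6b1 (0.21, adjusted p = 0.144) and Cox7a2 (-0.12, adjusted p = 0.467) and the subunits Cox6a1 (-0.02), Cox4i1 (-0.03) and Cox5a (0.03) did not pass either.

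One of 15 ATP synthase genes fell in males. Atp5pb measured 13.80, 13.79, 13.71 and 13.56 in control and 13.44, 13.49, 13.45 and 13.49 in mutant males, without overlap. It fell by 0.25 on the log2 scale (SE 0.08, adjusted p = 0.0321). Of its dimmer probes 1 fell by 0.54 (adjusted p = 0.00773) and the other ones gave -0.06 and 0.16, which did not pass. Atp5b (0.03) did not pass, nor did Atp5g3 (-0.01) and Atp5g2 (0.21, adjusted p = 0.0976), which both encode the ring subunit in the membrane. For Atp5a1, the alpha subunit, the probes disagreed: the brightest gave -0.09 (adjusted p = 0.47) and a dimmer probe rose by 0.39 (adjusted p = 0.0166).

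**Figure D2:**
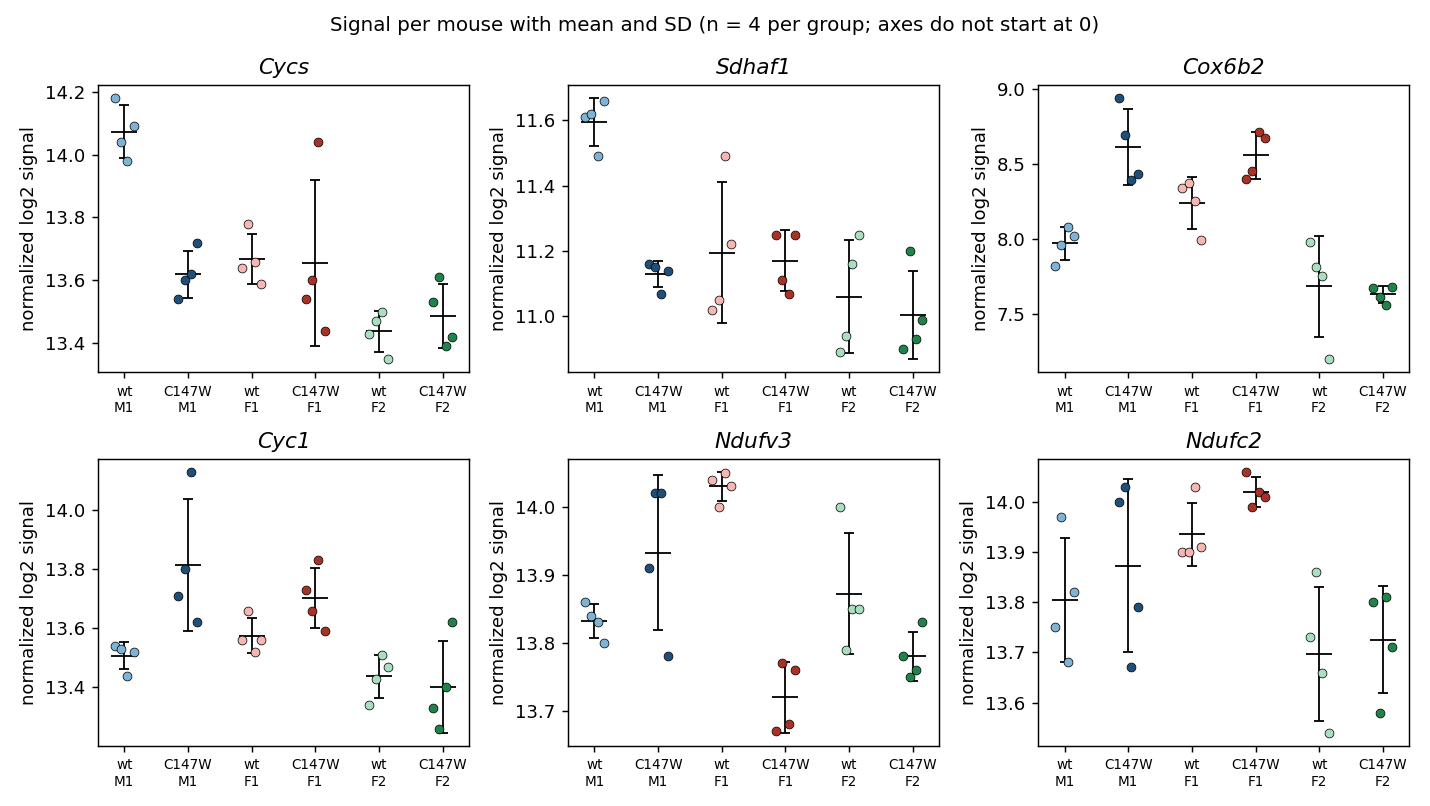
Normalized log2 signal (y axis, not from 0) of 6 member genes in every mouse, by genotype (wt or C147W) and group (M1, F1, F2); bars are means with SD of 4 mice. Cycs and Sdhaf1 had their highest means in the control males, Cox6b2 had its lowest means at 2 months, and Ndufv3 was lower in mutant than control females of 1 month.

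Cycs, Sdhaf1 and Cox6b2 passed the test under each of the 22 alternatives tried for the males. The other 7 calls did not pass under 3 to 12 of them, and the count of genes raised, 6, became 1 to 3 when TgUmodwt M1 replicate 2, 3 or 4 or TgUmodC147W M1 replicate 1, 2 or 3 was left out, and 11 without TgUmodC147W M1 replicate 4. The count of genes lowered, 4, was 2 without TgUmodwt M1 replicate 1 or 3. Markers of other cells moved in the same comparison. The mean log2 signal of 13 proximal tubule markers was 12.45 to 12.54 in control and 12.25 to 12.32 in mutant males, and that of 6 thick ascending limb markers was 13.43 to 13.53 and 13.83 to 13.98. Of the proximal tubule markers 2 of 13 fell, with a median change of -0.03, and the mean was drawn down most by Slc7a13 (-2.07) and Slc22a6 (-1.02). Of 9 expressed macrophage markers (Cd68 was not detected) 8 rose, with a mean of 7.35 to 7.63 in controls and 8.11 to 8.70 in mutants. Their part in the changes of the member genes was not tested.

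In females of 1 month, 2 members fell and none rose. The 2.44% called stood beside 17.4% of all named genes, of which 10% were raised and 7.42% lowered. The groups did not overlap for 2 members higher and 2 lower in mutants, against 13.4% and 9.79% of all named genes. The median change was -0.07, beside 0.01 over all named genes, with 64 of 82 members negative (78%, against 48.8% of all named genes). The interval lay within 1.5-fold for 79 members (96.3%, against 74.1% of all named genes). The same 2 genes were called, and 63 members were negative, without the array that lacked Xist signal. Of other cells' markers, 8 of 9 macrophage and 3 of 5 fibroblast markers rose, and 3 of 13 proximal tubule markers fell (median -0.23), with a mean of 12.46 to 12.55 in control and 12.12 to 12.36 in mutant females. Some of these marker calls were lost without the array that lacked Xist signal. They were the proximal tubule markers Slc22a6 (adjusted p = 0.0867) and Slc5a2 (adjusted p = 0.0952), the fibroblast marker Col1a2 (adjusted p = 0.0715) and the macrophage marker Adgre1 (adjusted p = 0.0686). The part of other cells in these values was not tested.

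Of the 2, Ndufv3 was detected on every array. It measured 14.04, 14.00, 14.05 and 14.03 in TgUmodwt F1 and 13.67, 13.77, 13.68 and 13.76 in TgUmodC147W F1 mice. The groups did not overlap and Ndufv3 fell by 0.31 (SE 0.08, limma adjusted p = 0.0222; 0.32 and adjusted p = 0.046 without the array in question). In males it differed by 0.10 ± 0.08 (adjusted p = 0.369), and the difference between the effects, F1 minus M1, was -0.41 ± 0.10 (adjusted p = 0.0195). It was the single member of 82 with a genotype effect that differed between the sexes, where 7.59% of all named genes passed that test, 3.67% with a higher and 3.92% with a lower effect in females. Without the array that lacked Xist signal this difference was -0.42 (adjusted p = 0.0258). Its dimmer probes gave -0.16 (adjusted p = 0.258) and -0.35 (adjusted p = 0.128) in females, and with the mean of the probes the difference between the sexes did not pass (-0.29, adjusted p = 0.1). The call in females was lost without TgUmodwt F1 replicate 1, TgUmodC147W F1 replicate 1 or TgUmodC147W F1 replicate 3, with adjusted p up to 0.0782 over the alternatives.

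Cox6a2, the heart and muscle form of a complex IV subunit, was dim. Its signals were 6.68, 7.13, 6.56 and 6.35 in control and 6.08, 5.61, 5.97 and 5.36 in mutant females of 1 month. The probe was detected on 2 of the 4 control arrays and on none of the mutant ones, where it has only a bound. With mutant signals raised to the lowest detected signal, the mean of the 4 control arrays was 1.17-fold higher. That mean includes control signals below detection, so 1.17 is not a strict lower bound. The limma test was not made on this value but on the fitted change of -0.92, which uses signals below detection in both groups. It gave an adjusted p of 0.00943, and 0.031 without the array that lacked Xist signal. A stricter detection filter left the probe out. Cycs (-0.01 ± 0.13, adjusted p = 0.958) and Sdhaf1 (-0.03 ± 0.12, adjusted p = 0.915) did not pass in these females. The test of the difference between the sexes gave 0.44 (adjusted p = 0.0918) for Cycs and 0.44 (adjusted p = 0.0575) for Sdhaf1, which did not pass. Sdhaf1 passed that test with no background correction, the deposited spline values, an offset of 50, a trended variance prior or TgUmodwt F1 replicate 3 left out, and Cycs with the trended prior. Without the array that lacked Xist signal the values were 0.46 (adjusted p = 0.106) and 0.46 (adjusted p = 0.0675). Cox6b2 measured 8.34, 8.37, 8.25 and 7.99 in control and 8.40, 8.45, 8.71 and 8.67 in mutant females; the groups did not overlap, but the difference of 0.32 ± 0.12 did not pass (adjusted p = 0.0889, and 0.114 without that array). Sdhb (-0.28, adjusted p = 0.0905) and Atp5a1 (0.34, adjusted p = 0.0701) also missed the threshold. The log2 differences of the core subunits were -0.07 for Ndufv1, -0.08 for Uqcrc1, -0.07 for Cox4i1, -0.01 for Cox5a, 0.01 for Cox6a1 and -0.03 for Atp5b, and none passed.

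In females of 2 months no member passed, beside 8.37% of all named genes called by limma, 5.42% raised and 2.96% lowered. At an unadjusted p under 0.05, 3 members (3.66%) differed, against 22.3% of all named genes. The median change was 0.01, beside -0.01 over all named genes. For 77 members (93.9%, against 82.7% of all named genes) the interval lay within 1.5-fold. Cox6a2 was detected on no array of either group. The log2 differences of the core subunits were -0.11 for Ndufv1, -0.15 for Uqcrc1, 0.04 for Cox4i1, -0.05 for Cox5a, -0.03 for Cox6a1 and -0.01 for Atp5b. Ndufaf4, a complex I assembly factor, measured 11.83, 12.04, 12.10 and 12.11 in control and 11.80, 11.37, 11.59 and 11.81 in mutant mice. It was the 1 member whose groups did not overlap, lower in mutants, where 7.42% of all named genes did not overlap in that direction and 8.56% in the other. Its change of -0.38 did not pass (adjusted p = 0.0819). At its dimmer probe the groups overlapped, with a change of -0.27 (adjusted p = 0.268). Macrophage markers rose at this age as well, 7 of 9, with a mean of 7.42 to 7.75 in control and 8.58 to 8.84 in mutant kidneys. All 3 expressed red cell markers fell, with a mean of 12.04 to 12.67 in control and 10.23 to 11.43 in mutant kidneys.

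**Figure D3:**
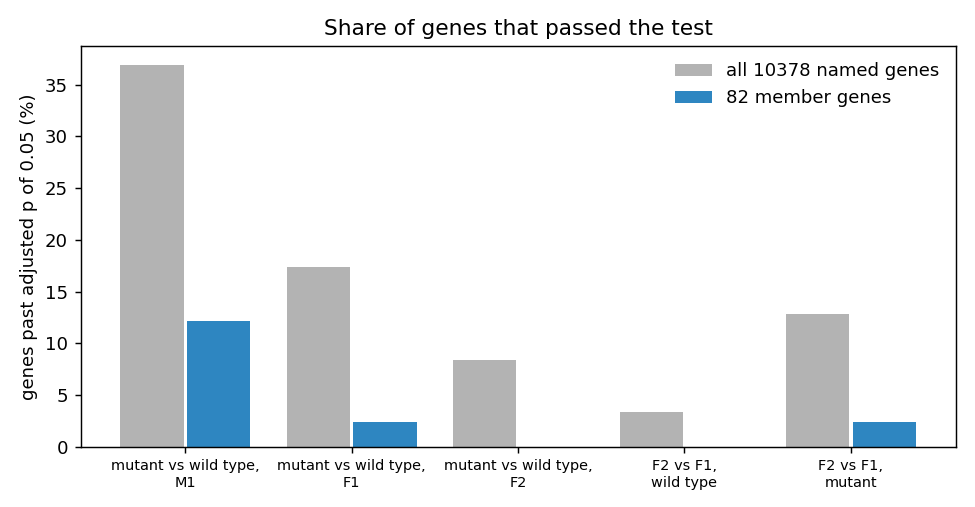
Share of genes past an adjusted p of 0.05 (y axis, percent) in each of the 5 comparisons, for all 10378 named genes (grey) and for the 82 member genes (blue). The member share is below the grey bar in each comparison, 12.2% against 36.9% in males and 0% against 8.37% in females of 2 months.

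Between 1 and 2 months the wild type females gave no call among the members, beside 3.38% of all named genes, 1.49% higher and 1.89% lower at 2 months. At an unadjusted p under 0.05, 10 members differed, all of them lower at 2 months (12.2%, against 8.08% of all named genes lower and 8.25% higher). Yet 73 of 82 members were lower (89%, against 51.1% of all named genes), with a median of -0.14 beside -0.00 over all named genes. Complex I (median -0.17, 30 of 34 lower), complex IV (-0.18, 11 of 12) and complex V (-0.13, 15 of 15) shared this sign. In the same comparison 2 of 5 fibroblast markers fell (median -0.40) and 2 of 13 proximal tubule markers rose (median 0.06), and their part in the shift was not tested. For 8 members the groups did not overlap, all lower at 2 months, where 5.69% of all named genes did not overlap in that direction and 5.63% in the other. The mean over the 71 subunit and cytochrome c genes was 13.30, 13.29, 13.37 and 13.16 in the 4 wild type females of 1 month and 13.18, 13.17, 13.10 and 13.04 in those of 2 months. As groups these means overlapped by 1 array, TgUmodwt F1 replicate 4, while between mice of the same replicate number they differed by -0.12, -0.12, -0.27 and -0.12. The mice are different animals, so these differences are not a paired comparison and add nothing to the comparison of the groups. With arrays scaled to a common median instead of quantiles, the median of all named genes moved to 0.14 and that of the members to -0.00, so the members were lower relative to other genes by 0.14 in either case, while their own direction depended on the scaling. The 73 mitochondrial ribosomal proteins also had a negative median in this comparison, -0.10 after quantile normalization. Member probes were brighter than most, at a median percentile of 97.2, and the part of brightness in the shift was not tested.

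Cycs was among the genes without overlap, with 13.64, 13.78, 13.66 and 13.59 at 1 month and 13.43, 13.47, 13.50 and 13.35 at 2 months (-0.23 ± 0.08, adjusted p = 0.186). Cox6b2 gave the lowest change, from 8.34, 8.37, 8.25 and 7.99 to 7.98, 7.81, 7.75 and 7.20, or -0.55 ± 0.16 (adjusted p = 0.0996). With the replicate number as a block Cox6b2 was the 1 member lowered in wild type females.

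In mutant females 2 members were lower at 2 months and none was higher, 2.44% beside 12.8% of all named genes, 6.07% higher and 6.7% lower. The groups did not overlap for 1 member higher and 6 lower at 2 months, against 8.86% and 11.6% of all named genes. Cox6b2 measured 8.40, 8.45, 8.71 and 8.67 at 1 month and 7.67, 7.61, 7.56 and 7.68 at 2 months, a fall of 0.93 on the log2 scale (SE 0.10, adjusted p = 0.000235) with no overlap. It passed under each of the 22 alternatives and also without the array that lacked Xist signal (-0.96, adjusted p = 0.000757). Ndufc2, an accessory subunit of the membrane arm of complex I, measured 14.06, 13.99, 14.02 and 14.01 at 1 month and 13.80, 13.58, 13.81 and 13.71 at 2 months. It fell by 0.30 (SE 0.09, adjusted p = 0.0491), a call that ended with any 1 of the 8 arrays left out (adjusted p = 0.0954 without the array that lacked Xist signal). Wild type females gave -0.24 for Ndufc2 (adjusted p = 0.226). The members' median was -0.04 beside -0.02 over all named genes, and with arrays scaled to a common median it was 0.04. Of the 82 members 58 were lower (70.7%, against 53.7% of all named genes). No member passed the test of whether the genotype effect differed between the ages, beside 1.27% of all named genes, 0.771% with a higher and 0.501% with a lower effect at 2 months, and 3 did at an unadjusted p under 0.05 (3.66%, against 13.1%).

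**Figure D4:**
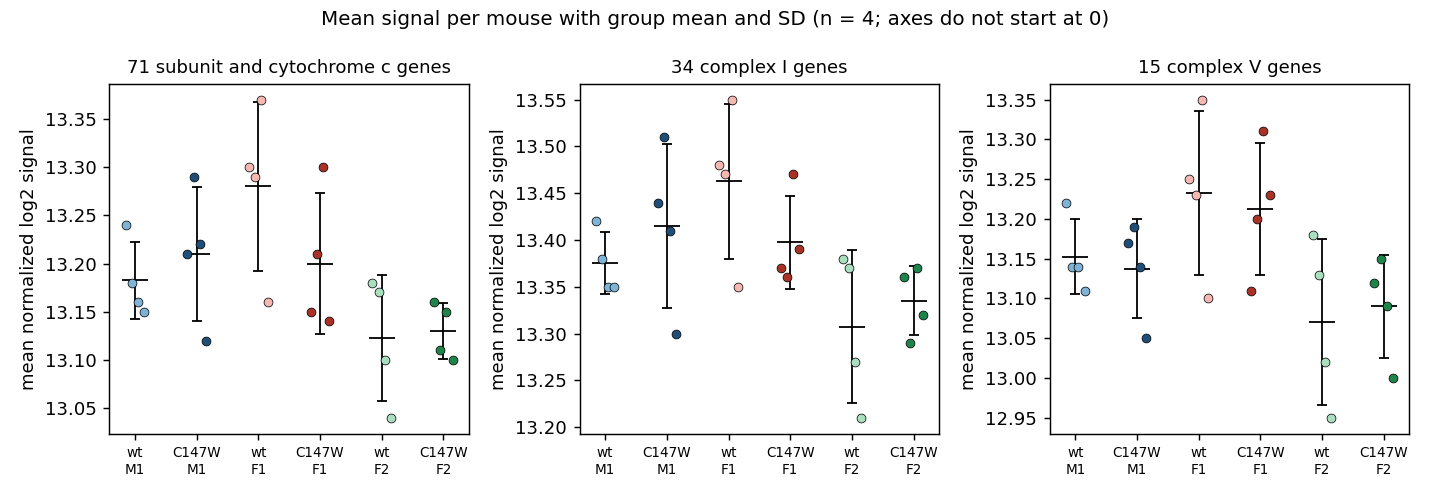
Mean normalized log2 signal per mouse (y axis, not from 0) over the 71 subunit and cytochrome c genes, the 34 complex I genes and the 15 complex V genes, with group means and SD of 4 mice. In the first panel wild type females lie at 13.16 to 13.37 at 1 month and 13.04 to 13.18 at 2 months, and the other groups between 13.10 and 13.30.

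Among the tissue-type isoforms, Cox8b varied widely between mice, with group SDs of 0.30 to 2.24. Cox8b, a heart and muscle form that is also abundant in brown fat, measured 8.49, 10.88, 9.90 and 5.73 in TgUmodC147W F1 and 7.61, 10.24, 10.29 and 9.83 in TgUmodC147W M1 mice, and 8.59 to 9.63 in TgUmodwt M1 mice. One array, TgUmodC147W F1 replicate 4, had it below detection, and the groups overlapped in every comparison. No difference passed, with 0.42 ± 0.50 in males (adjusted p = 0.544; 1.04 and adjusted p = 0.00456 without TgUmodC147W M1 replicate 1) and -1.24 ± 0.86 in females of 1 month (adjusted p = 0.381; -1.95 and adjusted p = 0.143 without the array that lacked Xist signal).

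The level of Cox8b followed that of the brown fat markers Cidea and Ucp1 from array to array, a relation chosen after its values were seen. Cpt1b, the other expressed brown fat marker, was not set against it. Ucp1, the uncoupling protein of brown fat, was lowest on the same arrays, at 5.72 in TgUmodC147W M1 replicate 1 and 5.42 in TgUmodC147W F1 replicate 4, as was Cidea, a lipid droplet protein, at 6.96 and 5.60. Over the 24 mice Cox8b correlated with Cidea with Pearson's r = 0.93 (permutation p = 1e-05, the smallest that 100000 resamples can give, adjusted 3e-05) and Spearman's rho = 0.83 (p = 1e-05, adjusted 6e-05). Without the 2 mice farthest from the median of Cidea r was 0.85, and for deviations from the group means it was 0.95. With Ucp1 r was 0.77 (permutation p = 1e-05, adjusted 3e-05) and rho 0.73 (p = 6e-05, adjusted 0.0002), and r was 0.71 without the farthest 2. With the fat marker Adipoq r was 0.63 (permutation p = 0.0003, adjusted 0.0007) and rho 0.62 (p = 0.0016, adjusted 0.0032), and 0.45 without the farthest 2. The permutation p-values here and for Cox7a1 below come from shuffling the mice across all groups. Because the relations were picked from these same values, the p-values describe them and do not test them.

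Cox7a1, which rose in mutant males, had lower correlations with the same markers, also chosen after the values were seen. Its r was 0.46 with Cidea (permutation p = 0.022, adjusted 0.033; rho 0.49, p = 0.016, adjusted 0.024; 0.48 without the farthest 2) and 0.40 with Ucp1 (p = 0.051, adjusted 0.061; rho 0.47, p = 0.021, adjusted 0.025; 0.60 without the farthest 2), and 0.06 with Adipoq (p = 0.77, adjusted 0.77; rho 0.08, p = 0.69, adjusted 0.69; 0.09 without the farthest 2), among 6 relations computed. Of 5 brown fat markers 3 were expressed, of which Cpt1b rose in mutant males (0.34, adjusted p = 0.021), and Elovl3 and Otop1 were not detected. Their mean was 8.09 to 8.74 in control and 7.59 to 9.66 in mutant males. Of 6 general fat markers 2 were expressed, and Plin1, Cidec, Fabp4 and Cfd were not detected. Adipoq itself rose in mutant males, from 8.56, 7.93, 8.01 and 8.36 to 8.88, 9.85, 9.57 and 8.91 (1.09 ± 0.22, adjusted p = 0.00309). Lep, the other expressed general fat marker, changed by 0.16 in males and did not pass. The part of fat in the change of Cox7a1 was not tested. Of 9 skeletal muscle markers 8 were not detected.

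**Figure D5:**
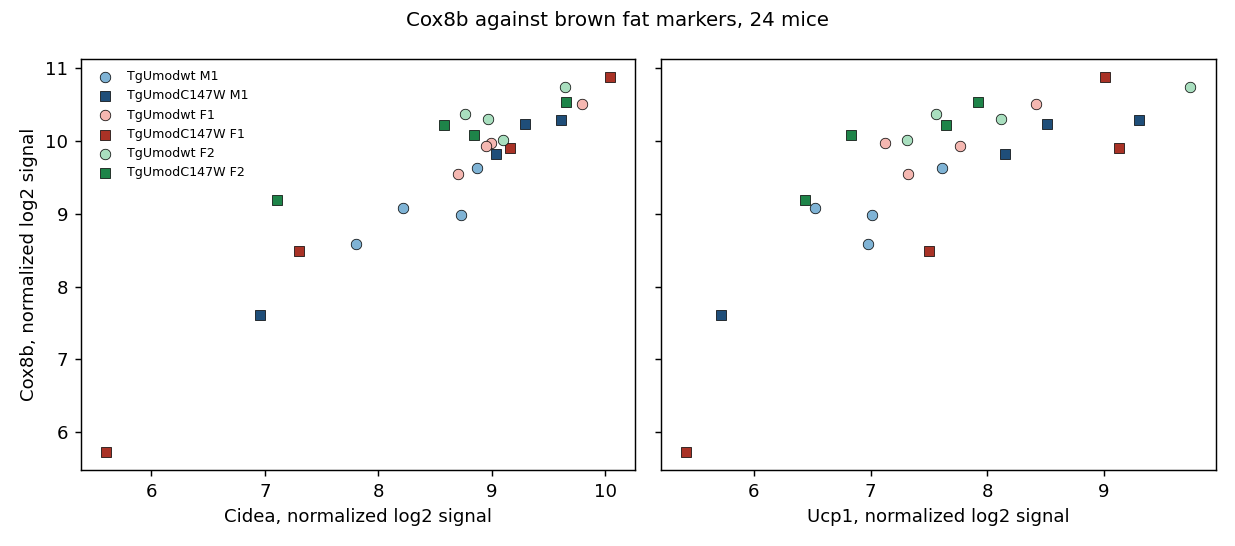
Normalized log2 signal of Cox8b (y axis) against the brown fat markers Cidea and Ucp1 (x axes) in the 24 mice, coloured by group. The points rise together, and TgUmodC147W F1 replicate 4 lies lowest on both axes at 5.73 for Cox8b and 5.60 for Cidea.

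Genes of the pathway outside the members moved in part in males. Of 13 subunits encoded in mitochondrial DNA 7 were measured, and ND5 (-0.60, adjusted p = 0.00963) and ND1 (-0.24, adjusted p = 0.0373), both of complex I, fell while none rose. Of 26 assembly factors with other names 7 fell and 1 rose, the largest falls being Acad9 (-0.56, adjusted p = 0.000435) and Tmem126b (-0.45, adjusted p = 0.00422), which serve complex I, and Taco1 (-0.41, adjusted p = 0.0157), which serves complex IV, while Uqcc2, of complex III, rose by 0.38 (adjusted p = 0.0107). Of the 7 mitochondrial subunits 28.6% fell and 0% rose, and of the 26 assembly factors 26.9% fell and 3.85% rose. Among all named genes 15.3% fell and 21.6% rose. In females of 1 month 1 of the 26 fell (3.85%, against 7.42% of all named genes). It was the ATP synthase factor Tmem70 (-0.38, adjusted p = 0.0169, and 0.0542 without the array that lacked Xist signal).

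Among enzymes that feed coenzyme Q or make it, 2 of 15 fell in males (13.3%, against 15.3% of all named genes) and none rose (against 21.6%). Gpd2, the mitochondrial glycerol-3-phosphate dehydrogenase, fell in each genotype comparison, by 0.65 (adjusted p = 0.00115) in males, 0.89 (adjusted p = 0.000375) in females of 1 month and 0.46 (adjusted p = 0.0311) in females of 2 months. Coq3, a methyltransferase of coenzyme Q synthesis, fell by 0.69 in males (adjusted p = 0.00036). Coq8a fell in females of 1 month (-0.64, adjusted p = 0.0183) and 2 months (-0.48, adjusted p = 0.0315), and Coq10b rose at 1 month (0.50, adjusted p = 0.00406). Upstream of the chain, kinases that switch off pyruvate dehydrogenase moved in opposite directions in males: Pdk4 rose by 1.21 (adjusted p = 0.0289) and Pdk1 by 0.35 (adjusted p = 0.0106), and Pdk3 fell by 1.01 (adjusted p = 7.25e-05). Of 9 expressed genes of the pyruvate dehydrogenase list 44.4% were called in males, beside 36.9% of all named genes. In females of 1 month Pdk2 fell by 0.49 (adjusted p = 0.00826), the phosphatase Pdp2, which switches the enzyme on again, fell by 0.48 (adjusted p = 0.0049) and Pdk1 rose by 0.38 (adjusted p = 0.0249). Of the same list 33.3% were called in these females, beside 17.4% of all named genes. Without the array that lacked Xist signal Coq8a (adjusted p = 0.0521) and Pdk1 (adjusted p = 0.0717) no longer passed in these females, and Gpd2, Coq10b, Pdk2 and Pdp2 did. Of 12 enzymes of the tricarboxylic acid cycle, Suclg2 fell by 0.36 (adjusted p = 0.00602) and Idh3a rose by 0.21 (adjusted p = 0.0495) in males, and none passed in females of either age. The 16.7% of these enzymes called in males was below the 36.9% of all named genes.

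Of 17 regulators of mitochondrial biogenesis 2 rose (11.8%, against 21.6% of all named genes) and 3 fell (17.6%, against 15.3%) in males. Ppara, a receptor that turns on fatty acid oxidation, fell in each genotype comparison, by 0.61 (adjusted p = 0.000492), 0.52 (adjusted p = 0.0169) and 0.44 (adjusted p = 0.0411) in the order M1, F1 and F2. Esrrb, an oestrogen-related receptor, rose by 0.87 in males (adjusted p = 0.000128) and 0.48 in females of 1 month (adjusted p = 0.0118). Polg2 fell by 0.43 (adjusted p = 0.00189) and Pprc1 rose by 0.47 (adjusted p = 0.012) in males, Twnk fell by 0.52 in females of 1 month (adjusted p = 0.0428; 0.109 without the array that lacked Xist signal, where Ppara and Esrrb still passed) and Perm1 by 0.63 in females of 2 months (adjusted p = 0.00271). A further list held 8 expressed genes of ATP/ADP and phosphate exchange or of uncoupling. Of these, Slc25a3 (0.25, adjusted p = 0.0368) and Atpif1 (0.22, adjusted p = 0.0456) rose and Vdac1 (-0.23, adjusted p = 0.0394) fell in males, and none passed in females. The 37.5% of this list called in males was near the 36.9% of all named genes. Of 73 mitochondrial ribosomal proteins 5 rose and 2 fell in males (9.59%, against 36.9% of all named genes), led by Mrps6 (1.21, adjusted p = 1.48e-05), Mrpl23 (0.56, adjusted p = 0.000699) and Mrpl51 (0.47, adjusted p = 0.00555), and Mrps6 also rose in females of 1 month (0.67, adjusted p = 0.00566). None of 7 antioxidant enzymes passed at 1 month, and Nnt, which makes mitochondrial NADPH, was lower in mutant females of 2 months (-0.39, adjusted p = 0.0469).

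Between 1 and 2 months none of the genes in these lists passed in wild type females. In mutant females Ppara was higher at 2 months (0.58, adjusted p = 0.00957), as were Gpd2 (0.38, adjusted p = 0.0286), Pdk2 (0.39, adjusted p = 0.0389) and Tmem70 (0.37, adjusted p = 0.0179). Pdk4 (-0.66, adjusted p = 0.0178), Mrps6 (-0.60, adjusted p = 0.00826), Esrrb (-0.48, adjusted p = 0.025), Foxred1 (-0.40, adjusted p = 0.0255), Pdk1 (-0.39, adjusted p = 0.0306), Mrpl37 (-0.39, adjusted p = 0.0288), Cox10 (-0.38, adjusted p = 0.0314) and Idh3a (-0.31, adjusted p = 0.0445) were lower. Without the array that lacked Xist signal Ppara, Pdk4 and Mrps6 still passed, and the other 9 of these genes did not, with adjusted p from 0.0501 (Mrpl37) to 0.105 (Pdk2). None of the listed genes had a genotype effect that differed between the ages, and between the sexes it differed for Mrpl51 (-0.71, adjusted p = 0.0195), Coq10b (0.67, adjusted p = 0.00251) and Ttc19 (0.49, adjusted p = 0.0157), each of which also passed without that array.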

How the data were processed

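Total RNA was extracted from whole kidney, labelled and hybridised by the authors, who read the BeadChips in GenomeStudio. The deposited non-normalized table holds the probe intensity, linear, with no background subtracted, and a detection p-value against negative controls. The deposited value table holds intensity normalized by the authors by cubic spline; it was an alternative. Probe IDs of these tables differ for 13666 of 45281 probes (30.2%), so probes were matched by their ranks over the 24 arrays and named only where both IDs gave 1 same gene (11 expressed probes with a member's symbol by only 1 ID were left out). From the intensities the background was removed by the normexp model of neqc, which takes it from the detection p-values, then 16 was added, and the 24 arrays were quantile normalized and put on the log2 scale (limma 3.58.1, R 4.3.3, statmod 1.5.0). The probes kept were those detected (p below 0.01) on 1 or more arrays. Each comparison was fitted on its 8 arrays (interactions on 16) with Benjamini-Hochberg adjustment, adjusted p under 0.05. Python 3.11.15, numpy 2.4.6, pandas 2.3.3 and matplotlib 3.10.9 served the rest.

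The members and gene lists were chosen with earlier results of these data known. The rule for named genes took core subunits and paired isoforms always, up to 4 genes past the test per complex, direction and comparison, and up to 3 per other list and comparison. Scripts were tested on simulated data. The number of arrays limits the precision. Between the 2 ages of wild type females every same-numbered correlation of deviations was over 0.1, from 0.105 to 0.328, which no other comparison met. Replicates 1 and 2 each correlated best with the other number, and the mice are different animals, so this does not show that the numbers pair the mice. Alternatives were another background, scaling, offset, filter, fit, variance prior, probe choice or naming table, a replicate block, and each array left out in turn.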

Additional observations from a re-analysis of the deposited data

Results flagged for a closer look

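Over 27 named genes in 6 groups of 4 mice, 162 groups were examined for a mouse far from the other 3, and 5 were found. Chance gives about 1 in 20. Cox7a1 was low in TgUmodwt F1 replicate 4 (11.20, against 11.91 to 11.97) and in TgUmodC147W F2 replicate 2 (11.28, against 11.72 to 11.79). Ndufb7 was also low in TgUmodwt F1 replicate 4 (10.52, against 10.91 to 10.97). Cox4i1 (15.65, against 15.42 to 15.44) and Ndufc2 (14.03, against 13.90 to 13.91) were high in TgUmodwt F1 replicate 3. The effect of the genotype on Ndufv3 differed between females and males of 1 month by -0.41 on the log2 scale (limma adjusted p = 0.0195), with all 4 mutant females below all 4 control females and 3 of 4 mutant males above the highest control male.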

How the results depend on the processing

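Cycs, Sdhaf1 and Cox6b2 in males and Cox6b2 with age in mutants kept direction and call under each of 22 alternatives, and Cox6a2 in females of 1 month under the 21 that tested it. No called result changed direction. Of the 82 genes in males, 10 were raised with no background correction, with the deposited spline values and with a trended, robust variance prior. In females of 1 month those same 3 settings raised 1 gene, while a stricter detection filter and the replicate block each left 1 lowered. In females of 2 months, 1 gene was lowered with those 3 settings, with arrays scaled to a common median (median change -0.11) and in one fit over 24 arrays. With age in wild types 2 genes were lowered in one fit and 1 with the block, and the median was -0.00 with a common median. With age in mutants 4 were lowered with the spline values and in one fit, and 1 with a common median (median 0.04) and the block. Between the sexes, 1 gene had a higher effect in females with no background correction, the spline values and an offset of 50, and 2 with the trended prior, the median was -0.18 with a common median, and 0 had a lower effect with the mean of a gene's probes. The causes were not tested.

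With single arrays left out, males gave 1 to 11 genes raised and 2 to 5 lowered, females of 1 month 0 to 1 (1 without TgUmodwt replicate 3 or TgUmodC147W replicate 1) and 1 to 2, females of 2 months 0 to 1 lowered (1 without TgUmodwt replicate 1), ageing mutants 0 to 1 raised (1 without TgUmodC147W F1 replicate 3) and 1 to 3 lowered (1 without TgUmodC147W F2 replicate 1 or 3 or any F1 array), and the comparison of sexes 0 to 1 higher (1 without TgUmodwt F1 replicate 3 or TgUmodC147W F1 replicate 1). Cox8b passed in males without TgUmodC147W M1 replicate 1 (1.04, adjusted p = 0.00456). The replicate block called 7 members in males, 6 of them shared with the 10. Replicate numbers did not pair the mice there (correlations -0.02 to 0.111). Bright probes near the top of the scale and dim ones such as Cox6a2 limit what the signals can show.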
